A study of Arabidopsis thaliana with 14 samples.

Results

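The 32 genes described here are those of the Arabidopsis thaliana phosphate starvation response, listed by name with no rule on measured values, among 33602 genes counted. They comprised 8 PHT1 phosphate transporters, the exporters PHO1 and PHO1;H1, the trafficking factor PHF1, 6 regulators (PHR1, PHO2 and SPX1 to SPX4), the RNAs IPS1 and AT4, 7 genes of membrane lipid remodelling, 4 phosphatases, the ribonuclease RNS1 and the kinase PPCK1. RNA was sequenced from pools of 5 whole rosettes of plants 3 weeks old, harvested 3 h after a spray that contained 0.001% of the wetting agent Silwet-L77. N2102363 (n = 4) and N2102362 (n = 4) are independent lines in which estradiol induces overexpression of the transcription factor WRKY75, and both were sprayed with 50 µM estradiol. Wild-type Col-0 plants received 50 µM estradiol (n = 3) or water (n = 3). The sources used here do not name the promoter or receptor construct behind the induction, and line plants without estradiol were not analysed here. No phosphate treatment is named for any group: all plants grew on a mixture of peat and vermiculite.

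Plants that run short of phosphate raise its uptake, release it from lipids, nucleic acids and other esters, and replace phospholipids by sulfolipids and galactolipids. The MYB factor PHR1 binds an element named P1BS in the promoters of many of these genes, SPX proteins hold PHR1 back when phosphate is plentiful, and the microRNA miR399 travels from shoot to root and removes the transcript of PHO2, a ubiquitin conjugase that marks phosphate transporters for degradation. WRKY75 is known in Arabidopsis as a WRKY factor whose loss weakens the induction of several phosphate starvation genes, and WRKY factors bind the W-box. The comparisons therefore ask whether a rise of WRKY75 lasting hours in rosettes moves this gene set.

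The sequences through which PHO2, IPS1 and AT4 share one microRNA are shown first, because these members are read together below. The mature miR399 forms are given as RefSeq annotates them on TAIR10.1, with the seed, bases 2 to 8, in capitals; ath-miR399c-3p has the same letters as ath-miR399b, and all 6 of these forms share the seed GCCAAAG.
ath-miR399a: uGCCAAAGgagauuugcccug
ath-miR399b: uGCCAAAGgagaguugcccug
ath-miR399d: uGCCAAAGgagauuugccccg
ath-miR399e: uGCCAAAGgagauuugccucg
ath-miR399f: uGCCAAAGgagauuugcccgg

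The RefSeq transcript of PHO2 holds 5 sites that each pair with a miR399 form at 19 of 21 bases, including all 7 bases of the seed. The form marked is ath-miR399f for chr2:14281827-14281847 and ath-miR399a for the other sites. The capitals mark paired bases, G to U pairs not counted, and the sites lie on the minus strand of TAIR10.1.
PHO2, chr2:14282106-14282126: uAGGGCAAAUCUuCUUUGGCA
PHO2, chr2:14281973-14281993: uAGGGCAuAUCUCCUUUGGCA
PHO2, chr2:14281884-14281904: uuGGGCAAAUCUCCUUUGGCA
PHO2, chr2:14281827-14281847: uCGaGCAAAUCUCCUUUGGCA
PHO2, chr2:14281770-14281790: uAGaGCAAAUCUCCUUUGGCA
IPS1 and AT4 are RNAs that bind miR399 without being cut. Each holds 1 site of 24 bases, on the plus strand, that pairs with ath-miR399b at 18 of 21 bases and carries 3 unpaired bases opposite the junction of miRNA bases 10 and 11. The lower-case u just before those 3 bases faces the G at miRNA base 11, a G to U pair that is not counted.
IPS1, chr3:3051224-3051247: uuGGGCAACUucuaUCCUUUGGCA
AT4, chr5:895149-895172: uuGGGCAACUucgaUCCUUUGGCA

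Promoter letters were read from the 300 bases before each RefSeq gene start. P1BS was searched as GNATATNC and the W-box as TTGACC or TTGACT, on both strands, and no match of one overlapped a match of the other in a member. P1BS was found in 10 of the 32 members (31.2%), against 6.5% of 27443 such windows, and the W-box in 10 of 32 (31.2%), against 32.3%. The share of members with a W-box was thus near that of all genes, while the share with P1BS was above it. Both elements were found in 4 members (12.5%, against 2.03% of all windows): PHT1;7, SPX3, GDPD1 and PS2. Only SPX3 and GDPD1 held P1BS more than once (6.25% of members, against 0.313% of all windows). A match is a run of letters and no evidence of binding. GDPD1 and PS2 are printed because they hold both elements, and PLDZ2 because it holds P1BS alone and recurs in the comparisons. Capitals mark the matches.
GDPD1, chr3:350011-350310, minus strand: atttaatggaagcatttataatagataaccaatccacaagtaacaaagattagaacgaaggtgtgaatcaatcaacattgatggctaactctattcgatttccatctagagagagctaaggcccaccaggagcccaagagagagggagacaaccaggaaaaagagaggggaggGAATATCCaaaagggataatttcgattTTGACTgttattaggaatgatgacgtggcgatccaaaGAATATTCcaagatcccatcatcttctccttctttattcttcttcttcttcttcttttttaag
PS2, chr1:27466349-27466648, minus strand: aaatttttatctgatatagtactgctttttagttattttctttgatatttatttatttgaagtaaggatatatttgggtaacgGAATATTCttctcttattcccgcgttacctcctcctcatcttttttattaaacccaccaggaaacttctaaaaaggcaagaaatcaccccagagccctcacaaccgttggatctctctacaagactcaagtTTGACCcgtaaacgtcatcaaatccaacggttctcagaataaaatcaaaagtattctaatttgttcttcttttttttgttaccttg
PLDZ2, chr3:1634894-1635193, plus strand: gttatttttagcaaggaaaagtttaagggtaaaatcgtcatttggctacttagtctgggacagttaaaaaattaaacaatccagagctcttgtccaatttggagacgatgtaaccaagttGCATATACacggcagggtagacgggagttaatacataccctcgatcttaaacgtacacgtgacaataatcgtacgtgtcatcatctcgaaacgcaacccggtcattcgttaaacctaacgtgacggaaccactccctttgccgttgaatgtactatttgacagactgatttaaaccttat

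The total count per library was between 20456036 and 22605970, so that 1 count was worth 0.044 to 0.0528 CPM (CPM is the count relative to the library's TMM-scaled total). Leaf markers summed to between 19138.5 and 43652.3 CPM, with all 5 markers detected. The 5 root markers summed to at most 0.401 CPM, and EXPA7 had no count anywhere. The 5 floral markers summed to between 2.26 and 4.67 CPM in N2102363, 1.54 and 2.78 CPM in N2102362, 1.16 and 1.87 CPM in Col-0 sprayed with estradiol and 1.70 and 1.90 CPM in Col-0 with water; their part in the results was not tested. WRKY75, the induced gene, had 76.8, 146, 116 and 167 CPM in N2102363 and 29.6, 30.7, 28.2 and 82.1 CPM in N2102362, against 2.69, 0.627 and 1.18 CPM in Col-0 with estradiol. Its 3 water-sprayed Col-0 libraries had 1.2498, 0.428 and 0.946 CPM. Its log2 fold change against Col-0 with estradiol was 6.42 ± 0.60 (SE) in N2102363 and 4.85 ± 0.57 in N2102362, with adjusted p of 0.000806 and 0.00458 in edgeR. Every line library was above every Col-0 library, and the level was higher in N2102363 than in N2102362 by 1.57 ± 0.40 on the log2 scale without passing the test (adjusted p = 1.00, edgeR).

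Levels differ between members by several orders of magnitude, and between-gene levels are given per kilobase of exon (mean over 14 libraries; exon lengths from RefSeq). Of the 32 members, 24 had enough counts to be tested and 8 did not: PHT1;1, PHT1;2, PHT1;3, PHT1;7, PHT1;8, PHT1;9, SPX3 and IPS1. PHO2 was the most abundant at 74.5 CPM per kb, above 96.0% of all genes counted, followed by SQD1 at 37.2, PHR1 at 35.6, SPX1 at 30.4, SQD2 at 30.3 and PAP12 at 24.6 CPM per kb. Of the 31 steps in this order only that between PHO2 and SQD1 had no overlap between the ranges of the libraries. At the other end, PHT1;3 had no count in any library, PHT1;8 had 1 count in total, PHT1;9 and IPS1 had 2 each, PHT1;7 had 4 and PHT1;2 had 5. Rosettes thus held PHO2, PHR1, SPX1 and the sulfolipid enzymes at the highest levels per kb of the list. Counts of most uptake transporters were at or near the limit of counting. PHT1;1, PHT1;2 and PHT1;3 are close copies, and how reads with several matches were counted is not known, so their levels are uncertain.

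**Figure D1:**
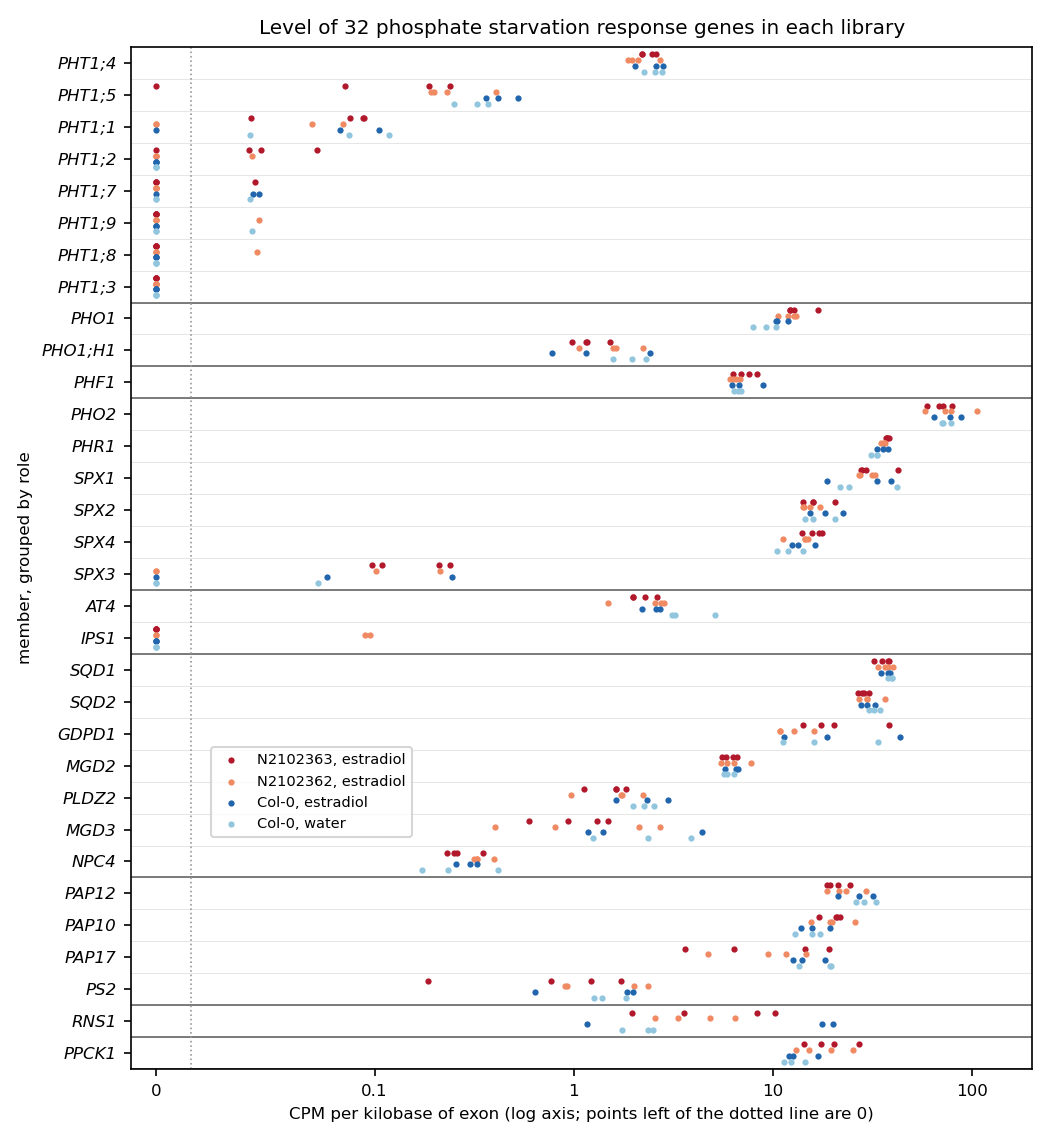
CPM per kilobase of exon (log axis, with values of 0 left of the dotted line) of all 32 members in the 14 libraries, grouped by role and coloured by group. PHO2 lies to the right of all other members, and PHT1;3 has no count in any library.

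No phosphate starvation gene was found to change in rosettes 3 h after the spray that induced WRKY75: none passed the threshold of 0.05 on the adjusted p (edgeR's quasi-likelihood test, Benjamini-Hochberg over all genes tested) in any of the 5 comparisons between groups. Set against Col-0 with estradiol, N2102363 had 0 of 24 members called, beside 0.0254% of the 19666 genes tested, N2102362 had 0 beside 0.0305%, and the mean of both lines had 0 beside 0.0356%. For estradiol against water in Col-0 it was 0 of 24 beside 0% of all genes, and for N2102363 against N2102362 0 of 24 beside 0.00508%. With so few genes called at all, a count of 0 members is near the background. At an unadjusted p under 0.05 the mean of both lines had 3 members (PHT1;5, PLDZ2 and RNS1, all below 0; 12.5%), beside 9.33% of all genes. N2102363 had 3 (PHT1;5, PHO1 and PLDZ2) beside 11.2%, N2102362 had 1 (RNS1) beside 4.65%, estradiol against water had 2 (RNS1 and AT4) beside 1.58%, and N2102363 against N2102362 had 0 beside 2.34%. DESeq2 called no member in these comparisons either. Groups that did not overlap were seen for PHT1;5 and PHO1 in N2102363 against Col-0 with estradiol (8.33% of members, beside 11.2% of all genes), for PHO1 and AT4 in estradiol against water (8.33%, beside 4.56%) and for PHR1 between the lines (4.17%, beside 2.06%). N2102362 and the mean of both lines had none against Col-0 with estradiol, beside 5.34% and 2.42% of all genes. Between same-numbered libraries of the lines, a count added after the values were seen, 5 of 24 members went one way in all 4 pairs (20.8%, beside 17.2% of all genes): PHF1, PHR1 and GDPD1 were higher in N2102363, and PHO1;H1 and PS2 lower.

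The medians of the members lay close to 0. In the mean of both lines 7 of 24 members had a log2 fold change above 0 and 17 below, with a median of -0.07, beside 50.9% of all genes below 0 and a median of 0.00. The median was -0.12 in N2102363 (18 below 0, beside 50.8% of all genes) and -0.03 in N2102362 (14 below, beside 49.6%). It was 0.07 for estradiol against water in Col-0 (8 below, beside 47.9%) and -0.02 for N2102363 against N2102362 (12 below, beside 52.2%). The first 4 of these comparisons share the Col-0 libraries with estradiol, so their directions are not independent. A p that misses the threshold does not show equal levels, and the intervals say how large a change could be: in the mean of both lines the 95% interval lay within a 2-fold change either way for 17 of 24 members (70.8%, beside 85.8% of all genes tested). The exceptions were PHT1;5, MGD3, PLDZ2, GDPD1, PAP17, PS2 and RNS1. In bulk rosettes, fewer cells of a type and less RNA per cell cannot be told apart for any of these values.

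**Figure D2:**
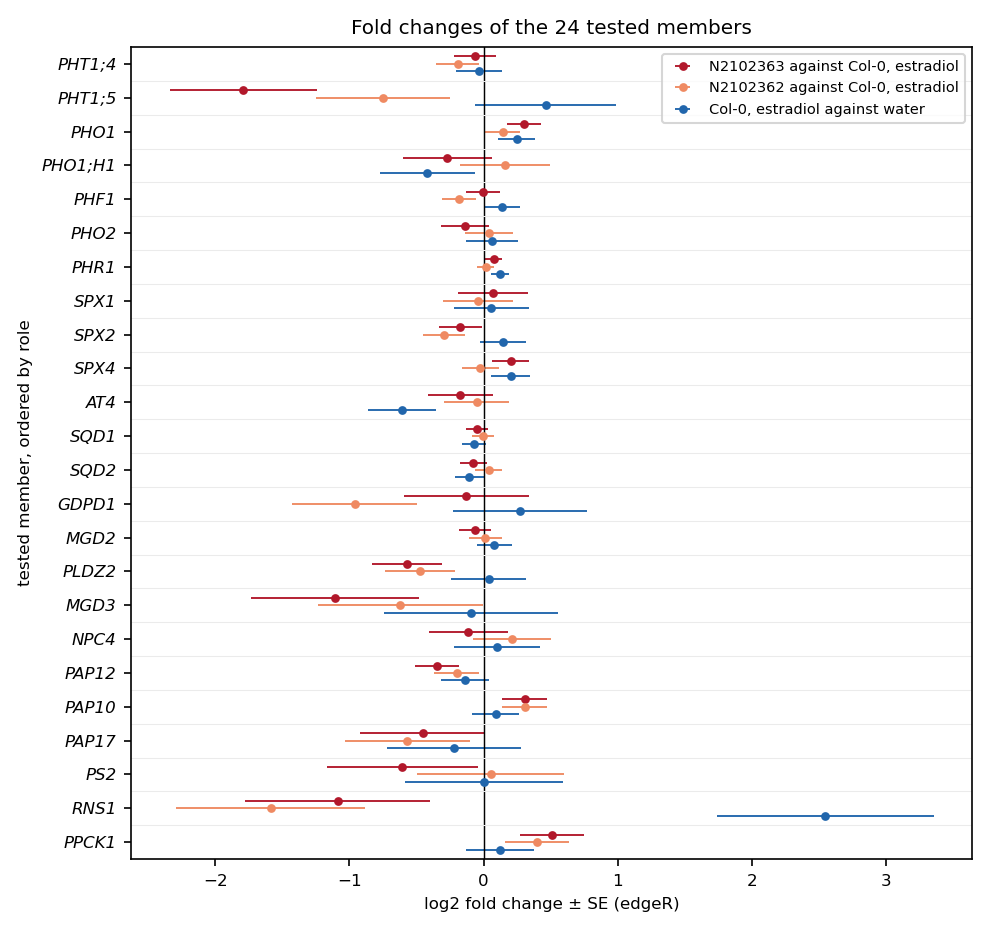
Log2 fold change with its SE from edgeR of the 24 tested members in N2102363 and N2102362 against Col-0 with estradiol, and in Col-0 with estradiol against water, ordered by role. No member passed the adjusted threshold, and the widest bars belong to RNS1, MGD3, PS2 and PHT1;5.

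PHT1 proteins are plasma-membrane symporters that take up phosphate with protons. PHT1;4 was the only one above 1 CPM in these rosettes, at 4.72 ± 0.37 CPM in N2102363, 4.32 ± 0.76 in N2102362, 4.95 ± 0.78 in Col-0 with estradiol and 5.06 ± 0.53 in Col-0 with water (SD). Its libraries had 4.404, 5.15, 4.93 and 4.42 CPM in N2102363 and 3.74, 5.42, 4.21 and 3.91 CPM in N2102362, against 5.59, 4.08 and 5.17 CPM in Col-0 with estradiol. The groups overlapped, and the log2 fold change of the mean of both lines was -0.13 (95% interval -0.43 to 0.18). PHT1;1 had at most 5 counts in a library, and its transcript is 97.7% identical to that of PHT1;2 over 1577 bases and 90.2% to that of PHT1;3. PHT1;4 and PHT1;7 are 81.6% identical. The sources used here do not say how reads matching several copies were counted, and shared stretches of read length were not searched for. The levels of these genes and the split of counts between them are therefore uncertain.

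PHT1;5 (AT2G32830, chr2:13927699-13929713), a transporter that moves phosphate between source and sink organs, is named after its values were seen. It had 8, 3, 0 and 9 counts in N2102363 (0.352, 0.133, 0 and 0.452 CPM) and 0.437, 0.767, 0.374 and 0.360 CPM in N2102362, against 0.686, 0.986 and 0.788 CPM in Col-0 with estradiol. All 4 libraries of N2102363 lay below all 3 of Col-0 with estradiol, and so did 7 of the 8 line libraries; the count of 0 allows up to 0.145 CPM in that library. The log2 fold change was -1.79 ± 0.55 (SE) in N2102363, with an unadjusted p of 0.00601 and an adjusted p of 0.431 in edgeR's quasi-likelihood test with Benjamini-Hochberg adjustment. The two-sided exact permutation p on log2(CPM + 0.5) was 0.0571 for N2102363. For the mean of both lines the exact permutation p was 0.0424, with the 8 line libraries taken as exchangeable whatever their line or replicate number. The log2 fold change there was -1.27 ± 0.45 (adjusted p = 0.520, edgeR). The difference therefore did not pass the test over all genes, and it rests on at most 22 counts per library. Col-0 with water had 0.700, 0.618 and 0.473 CPM, which overlaps N2102362.

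PHO1 (AT3G23430, chr3:8387508-8393296), which exports phosphate to the xylem in roots, had 38.0, 36.4, 50.3 and 36.4 CPM in N2102363 and 39.1, 35.5, 38.1 and 31.6 CPM in N2102362. It had 35.5, 31.2 and 31.4 CPM in Col-0 sprayed with estradiol and 27.7, 23.9 and 31.0 CPM in Col-0 with water. Every N2102363 library was above every Col-0 library with estradiol, and every Col-0 library with estradiol above every one with water. The log2 fold change was 0.30 ± 0.13 (SE) in N2102363 against Col-0 with estradiol (adjusted p = 0.439, edgeR) and 0.25 ± 0.14 for estradiol against water in Col-0 (adjusted p = 1.00, edgeR). The exact permutation p for N2102363 was 0.0857, where 4 against 3 libraries can reach 0.0286. Without N2102363 replicate 3, the highest library, its log2 fold change was 0.17. In the mean of both lines PHO1 differed by 0.22 ± 0.12 (SE, log2; adjusted p = 0.528, edgeR; exact permutation p = 0.115). Of the 8 line libraries 6 lay above all Col-0 libraries with estradiol. Its homologue PHO1;H1 averaged 3.85 ± 0.73 CPM in N2102363, 5.17 ± 1.51 in N2102362, 4.61 ± 2.71 in Col-0 with estradiol and 6.202 ± 1.19 in Col-0 with water (SD), with groups that overlapped.

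PHF1, which lets PHT1 proteins leave the endoplasmic reticulum, had 12.4, 15.0, 13.6 and 11.4 CPM in N2102363 and 11.8, 11.4, 12.3 and 10.9 CPM in N2102362, against 11.2, 12.1 and 16.002 CPM in Col-0 with estradiol. The groups overlapped, and its log2 fold change was 0.18 ± 0.12 (SE) for N2102363 over N2102362 (adjusted p = 1.00, edgeR; exact permutation p = 0.114). N2102363 was above N2102362 in all 4 same-numbered pairs, and without N2102363 replicate 2 the fold change was 0.11.

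Among the regulators, PHR1 was the steadiest member. It had 65.9, 65.5, 68.0 and 66.2 CPM in N2102363, 64.9, 62.0, 63.9 and 64.1 CPM in N2102362, 59.1, 63.0 and 66.8 CPM in Col-0 sprayed with estradiol and 55.1, 59.1 and 59.3 CPM in Col-0 with water. All N2102363 libraries were above all N2102362 libraries, but the difference was only 0.06 ± 0.06 on the log2 scale (SE; adjusted p = 1.00, edgeR). Set against Col-0 with estradiol, the mean of both lines differed by 0.05, with a 95% interval from -0.08 to 0.17. PHO2 (AT2G33770, chr2:14277558-14283040) had 285, 298, 331 and 247 CPM in N2102363, 304, 440.0, 329 and 242 CPM in N2102362 and 323, 368 and 269 CPM in Col-0 with estradiol. The groups overlapped throughout, and the log2 fold change of the mean of both lines was -0.05 (95% interval -0.40 to 0.29). Mature miR399 was not measured, and its precursors are not analysed here.

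The SPX proteins sense inositol pyrophosphates and bind PHR1. SPX2 had 18.4, 26.6, 20.4 and 20.4 CPM in N2102363 and 22.3, 18.5, 19.8 and 18.4 CPM in N2102362, against 23.5, 19.9 and 29.1 CPM in Col-0 with estradiol. Col-0 with water had 20.5, 26.5 and 18.7 CPM. Of the 8 line libraries 4 lay below all Col-0 libraries with estradiol, and the mean of both lines differed by -0.23 ± 0.14 (SE, log2; adjusted p = 0.553, edgeR; exact permutation p = 0.139). That difference was -0.08 without replicate 3 of Col-0 with estradiol and -0.36 without its replicate 2. SPX4 had 21.4, 23.4, 24.2 and 19.2 CPM in N2102363 and 20.6, 15.4, 19.7 and 19.7 CPM in N2102362. They overlapped, with a log2 fold change of 0.23 ± 0.13 (SE) for N2102363 over N2102362 (adjusted p = 1.00, edgeR), which was 0.14 without N2102362 replicate 2. SPX1 ran from 22.6 to 51.5 CPM over the 14 libraries, with group means between 35.3 and 38.6 CPM, and SPX3 never exceeded 5 counts.

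Of the target mimics, IPS1 had 1 count in each of 2 N2102362 libraries and none elsewhere. AT4 (AT5G03545) had 1.85, 2.13, 2.46 and 1.86 CPM in N2102363, 2.57, 2.66, 2.39 and 1.39 CPM in N2102362, 2.53, 2.42 and 2.07 CPM in Col-0 sprayed with estradiol and 4.80, 2.90 and 3.03 CPM in Col-0 with water. All 3 Col-0 libraries with estradiol lay below all 3 with water, while the lines overlapped Col-0 with estradiol. The difference between estradiol and water in Col-0 was -0.61 ± 0.26 (SE, log2), with an unadjusted p of 0.0331 and an adjusted p of 1.00 in edgeR; the exact permutation p of 0.1 is the smallest that 3 against 3 libraries allow. Without replicate 1 of Col-0 with water, the highest library, the difference was -0.35. The files place AT4 at chr5:894706-895400, which is shorter than the RefSeq transcript of 936 bases, so its level per kb depends on the annotation.

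Lipid remodelling genes were the largest group without a filtered member, all 7 being tested. For the mean of both lines 1 had a fold change above 0 and 6 below, relative to Col-0 with estradiol, and none passed the test. SQD1, which makes the sulfolipid head group, had 61.7, 67.7, 73.0 and 71.9 CPM in N2102363 and 64.7, 72.1, 69.8 and 76.1 CPM in N2102362, against 66.7, 72.2 and 73.8 CPM in Col-0 with estradiol. Those ranges overlapped, and the interval of the difference was narrow, from -0.18 to 0.13 on the log2 scale. SQD2, which completes the sulfolipid, and MGD2, a galactolipid synthase, differed by -0.02 (95% interval -0.21 to 0.17) and -0.03 (-0.26 to 0.21). NPC4, a phospholipase C, had 7 to 17 counts per library, and its transcript is 86.3% identical to that of NPC5. Shared stretches of read length were not searched for, so how far its counts are affected is uncertain.

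PLDZ2 (AT3G05630, chr3:1635200-1640348), a phospholipase D that frees phosphate from phospholipids, had 6.43, 5.77, 5.75 and 3.96 CPM in N2102363 and 6.12, 7.85, 6.08 and 3.39 CPM in N2102362. Col-0 had 8.23, 10.5 and 5.71 CPM with estradiol and 8.95, 7.94 and 6.95 CPM with water. The lowest line libraries were both replicate 4, and 2 of 8 line libraries lay below all Col-0 libraries with estradiol. The mean of both lines differed by -0.52 ± 0.23 (SE, log2), with an unadjusted p of 0.0391, an adjusted p of 0.528 in edgeR and an exact permutation p of 0.0970. Without Col-0 estradiol replicate 2 the difference was -0.30, and without replicate 4 of both lines -0.37. MGD3, a galactolipid synthase of the starvation response, had 1.81, 2.53, 2.85 and 1.15 CPM in N2102363, 1.55, 4.11, 5.24 and 0.771 CPM in N2102362 and 2.69, 8.51 and 2.26 CPM in Col-0 with estradiol. Col-0 with water had 4.55, 7.51 and 2.41 CPM. Again replicate 4 was lowest in both lines, and the log2 difference of -0.87 ± 0.53 (SE) had an adjusted p of 0.560 (edgeR) and an exact permutation p of 0.242. It rested on Col-0 estradiol replicate 2, at 8.51 CPM: without that library the difference was -0.0013.

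GDPD1 (AT3G02040, chr3:348167-350010; SRG3 in RefSeq), which hydrolyses glycerophosphodiesters, had 30.7, 58.3, 26.5 and 21.6 CPM in N2102363 and 24.5, 16.5, 19.5 and 16.5 CPM in N2102362. Col-0 had 28.7, 17.4 and 66.4 CPM with estradiol and 24.6, 51.4 and 17.1 CPM with water. One library in each group but N2102362 exceeded 50 CPM, and 3 of 4 N2102363 libraries were above all of N2102362, each of the 4 being above the N2102362 library of its number. The log2 fold change of N2102363 over N2102362 was 0.83 ± 0.44 (SE; adjusted p = 1.00, edgeR; exact permutation p = 0.0571), and that of N2102362 against Col-0 with estradiol was -0.96 ± 0.47 (adjusted p = 0.852, edgeR). The first was 0.46 without N2102363 replicate 2, and the second -0.26 without replicate 3 of Col-0 with estradiol. With the replicate block the first was 0.76 ± 0.50 (SE; adjusted p = 0.727, edgeR). GDPD1 overlaps AT3G02030 on the other strand by 681 bases, and the libraries do not mark strand, so reads of the overlap cannot be told apart. AT3G02030 averaged 4.48 CPM in N2102363 and 3.54 CPM in N2102362, a log2 fold change of 0.34 ± 0.17.

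**Figure D3:**
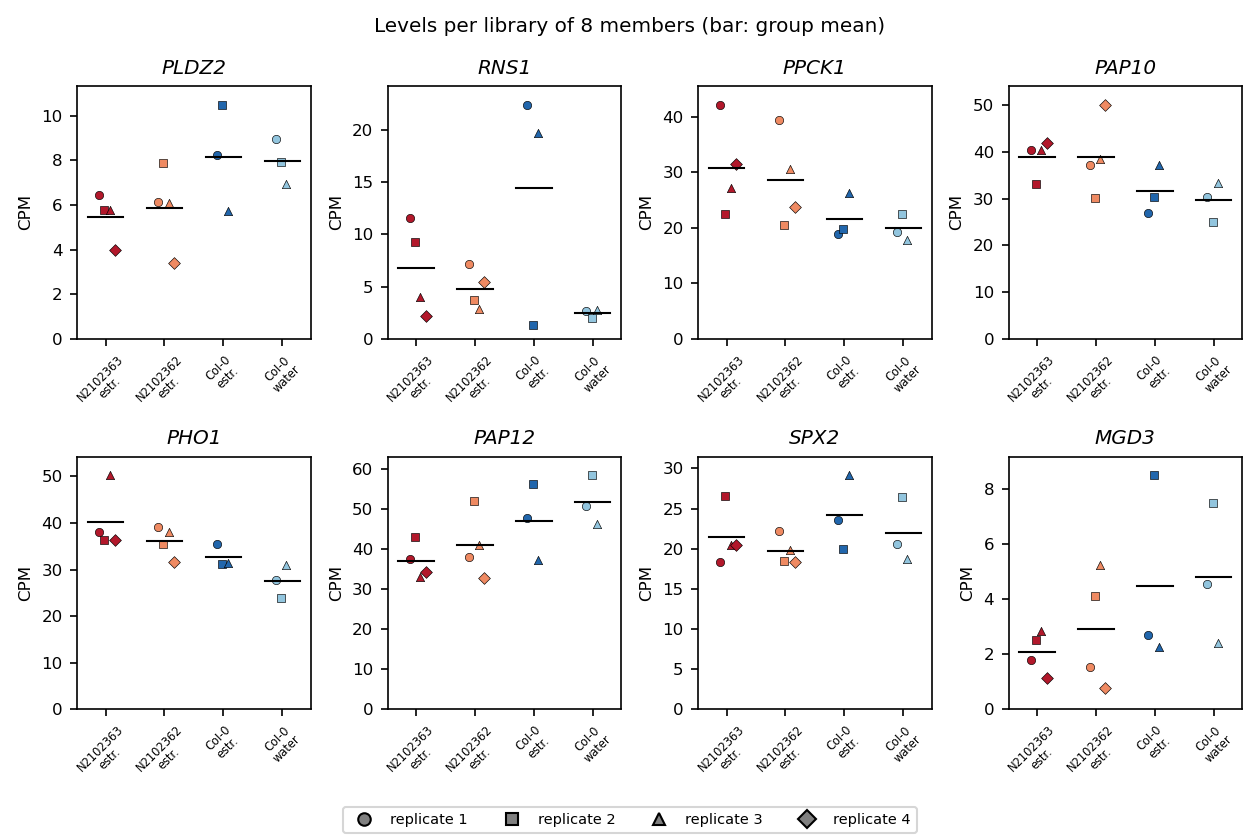
CPM in each library of 8 members (PLDZ2, RNS1, PPCK1, PAP10, PHO1, PAP12, SPX2 and MGD3), by group, with symbols for the replicate number and a bar for the group mean. RNS1 in Col-0 with estradiol spans 1.299 to 22.4 CPM, and replicate 4 is the lowest line library for PLDZ2 and MGD3 in both lines.

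Acid phosphatases release phosphate from organic esters. PAP10, which sits at the root surface, had 40.4, 33.2, 40.5 and 42.0 CPM in N2102363 and 37.3, 30.2, 38.4 and 50.1 CPM in N2102362, against 26.9, 30.5 and 37.3 CPM in Col-0 with estradiol. Col-0 with water had 30.3, 25.1 and 33.4 CPM. Although 5 of the 8 line libraries lay above all Col-0 libraries with estradiol, the log2 fold change of 0.31 ± 0.15 (SE) had an adjusted p of 0.528 in edgeR and an exact permutation p of 0.0909, and was 0.20 without replicate 1 of Col-0 with estradiol. PAP12, a secreted phosphatase, had 37.5, 43.1, 33.1 and 34.2 CPM in N2102363, 38.0, 52.04, 41.0 and 32.9 CPM in N2102362 and 47.9, 56.2 and 37.3 CPM in Col-0 with estradiol. Col-0 with water had 50.7, 58.5 and 46.4 CPM, above every N2102363 library and overlapping N2102362. The lines overlapped Col-0 with estradiol, with a log2 difference of -0.28 ± 0.14 (SE; adjusted p = 0.528, edgeR; exact permutation p = 0.139). It was -0.13 without replicate 2 of Col-0 with estradiol and -0.42 without its replicate 3. PS2, a pyrophosphatase also called PPsPase1, had 5 to 68 counts per library and is 80.0% identical to PECP1 over 766 bases. Shared stretches of read length were not searched for, so how far its counts are affected is uncertain.

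PAP17 (AT3G17790, chr3:6089605-6091231), a further acid phosphatase induced by phosphate shortage, had 24.1, 31.7, 10.5 and 6.02 CPM in N2102363 and 19.2, 24.2, 15.6 and 7.82 CPM in N2102362. Col-0 had 30.3, 21.0 and 23.2 CPM with estradiol and 32.1, 32.4 and 22.4 CPM with water. Replicate 4 was lowest in both lines. The mean of both lines differed from Col-0 with estradiol by -0.51 ± 0.41 (SE, log2; adjusted p = 0.627, edgeR), and by -0.25 ± 0.28 without replicate 4 (adjusted p = 0.890). PAP17 overlaps AT3G17800 on the other strand by 122 bases, and without strand their shared reads cannot be told apart. AT3G17800 averaged 138 CPM in N2102363, 136.9 CPM in N2102362 and 159.1 CPM in Col-0 with estradiol. Its log2 fold change was -0.21 ± 0.18 (SE) in the mean of both lines and 0.18 ± 0.22 in replicate 4 against replicates 1 to 3.

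RNS1 (AT2G02990, chr2:873506-874811), a secreted ribonuclease that is also induced by wounding, varied most of all. It had 11.5, 9.27, 4.01 and 2.21 CPM in N2102363, 7.19, 3.75, 2.85 and 5.40 CPM in N2102362, 22.4, 1.299 and 19.7 CPM in Col-0 sprayed with estradiol and 2.65, 1.95 and 2.79 CPM in Col-0 with water. Replicates 1 and 3 of Col-0 with estradiol were the highest of all 14 libraries and replicate 2 was the lowest. The log2 fold change of estradiol over water in Col-0 was 2.55 ± 0.81 (SE), with an unadjusted p of 0.00777, an adjusted p of 1.00 in edgeR and an exact permutation p of 0.4. Against Col-0 with estradiol the mean of both lines differed by -1.34 ± 0.59 (adjusted p = 0.528, edgeR; exact permutation p = 0.370), and against Col-0 with water by 1.21 (adjusted p = 0.328, edgeR). Its direction thus depended on which Col-0 group the lines were set against, and its size on individual ones of them: the first of these differences was -0.87 without replicate 1 of Col-0 with estradiol and -1.88 without its replicate 2.

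PPCK1, the kinase of phosphoenolpyruvate carboxylase, had 42.2, 22.4, 27.2 and 31.6 CPM in N2102363, 39.5, 20.5, 30.6 and 23.8 CPM in N2102362 and 18.8, 19.8 and 26.3 CPM in Col-0 with estradiol. Col-0 with water had 19.3, 22.6 and 17.8 CPM. Of the 8 line libraries 5 were above all Col-0 libraries with estradiol. The log2 fold change of 0.45 ± 0.22 (SE) had an adjusted p of 0.528 in edgeR and an exact permutation p of 0.103. In all, 22 such exact tests were made on 14 members, and their p-values are not adjusted.

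Members differed much in how steady they were between libraries of one group. The SD of log2(CPM + 0.5) within groups had a median of 0.237 over the 22 members of at least 1 CPM, beside 0.196 over 18110 genes. RNS1 had the widest spread at 1.12, above 99.0% of genes of like level, followed by MGD3 at 0.806 (96.1%), PAP17 at 0.711 (98.2%), GDPD1 at 0.667 (98.5%) and PS2 at 0.631 (93.4%). MGD2, the homologue of MGD3, lay at 0.143 (29.5%), and the phosphatases PAP10 and PAP12 at 0.230 (74.5%) and 0.232 (76.2%). PHR1, the transcription factor, had the narrowest at 0.0516, above 0.884% of genes of like level. SQD1 at 0.0890 and SQD2 at 0.127 were also narrow, at the percentiles 16.4 and 39.8. The members in which P1BS was found had a median spread of 0.334 (range 0.143 to 0.667, 7 tested) and those without 0.230 (0.0516 to 1.12, 17 tested); this is a description with no test.

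**Figure D4:**
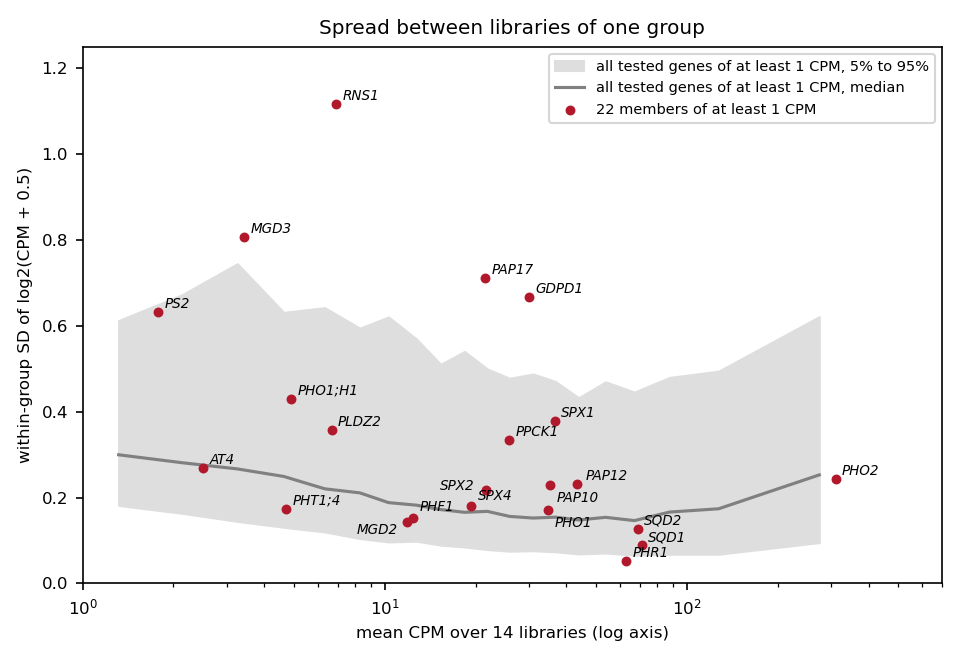
Within-group SD of log2(CPM + 0.5) against mean CPM (log axis) for the 22 members of at least 1 CPM, over the median and the 5% to 95% band of all tested genes of that level. RNS1, MGD3, PAP17 and GDPD1 lie above the band, and PHR1 lies below it.

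Replicate 4, which exists only in the 2 lines and alone carries a date in its file name, was set against replicates 1 to 3 of the lines after the data had been seen. It differed at 1468 of 19666 genes (7.46%; edgeR with a term for replicate 4), and of the 24 members PAP17 and PLDZ2 fell (8.33%), a share near the background. PAP17 had 6.02 and 7.82 CPM in replicate 4 of N2102363 and N2102362, against 10.5 to 31.7 CPM in replicates 1 to 3. Its log2 fold change was -1.59 ± 0.37 (SE; adjusted p = 0.0319, edgeR). PLDZ2 had 3.96 and 3.39 CPM in replicate 4, against 5.75 to 7.85 CPM in replicates 1 to 3, a log2 fold change of -0.78 ± 0.22 (adjusted p = 0.0493, edgeR). Neither gene overlapped between the sets of libraries, and both values stood close to the threshold. A further 3 members had sets that did not overlap without passing: MGD3 (-1.60 ± 0.70, adjusted p = 0.173), PHO2 (-0.43 ± 0.16, adjusted p = 0.106) and PAP10 (0.33 ± 0.15, adjusted p = 0.180), so that 5 of 24 members did not overlap (20.8%), beside 33.6% of all genes. At an unadjusted p under 0.05 the same 5 members passed (20.8%, beside 26.6% of all genes), and 17 of 24 had a fold change below 0 (70.8%, beside 51.7%).

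The fold changes of both members kept their direction without any one line library, between -1.88 and -1.33 for PAP17 and between -0.98 and -0.59 for PLDZ2, while their adjusted p crossed the threshold. Replicate 4 has 1 library per line, so leaving out either leaves an arm of 1 library, which is assumed to vary like the other groups. In those fits edgeR called 0 genes (1489 at an unadjusted p under 0.05 without N2102362 replicate 4, and 3781 without N2102363 replicate 4). With both replicate 4 libraries kept, 207 genes were called without N2102363 replicate 2, 497 without N2102362 replicate 1, 536 without N2102362 replicate 3, 632 without N2102363 replicate 1, 677 without N2102362 replicate 2 and 2394 without N2102363 replicate 3. PAP17 was no longer called without N2102363 replicate 1, 2 or 4 or N2102362 replicate 1, 2 or 4 (adjusted p 0.0538 to 0.620, edgeR), and PLDZ2 stayed called only without N2102363 replicate 3 (adjusted p = 0.0454). Leaf markers summed to 38423.5 and 43652.3 CPM in replicate 4, against 22584.8 to 30310.4 CPM in replicates 1 to 3, with all 5 markers detected. Floral markers summed to 2.78 and 4.67 CPM, against 1.54 to 3.57 CPM, and root markers to 0.103 and 0.401 CPM, against 0.0903 to 0.290 CPM. WRKY75 was also higher in replicate 4 of each line than in that line's other libraries (log2 fold change 1.05 ± 0.32, adjusted p = 0.0640, edgeR). The part of these markers and of WRKY75 in the difference was not tested, and the replicate cannot be told apart from whatever set its libraries apart. Without replicate 4 of both lines, no member was called in any comparison with Col-0.

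**Figure D5:**
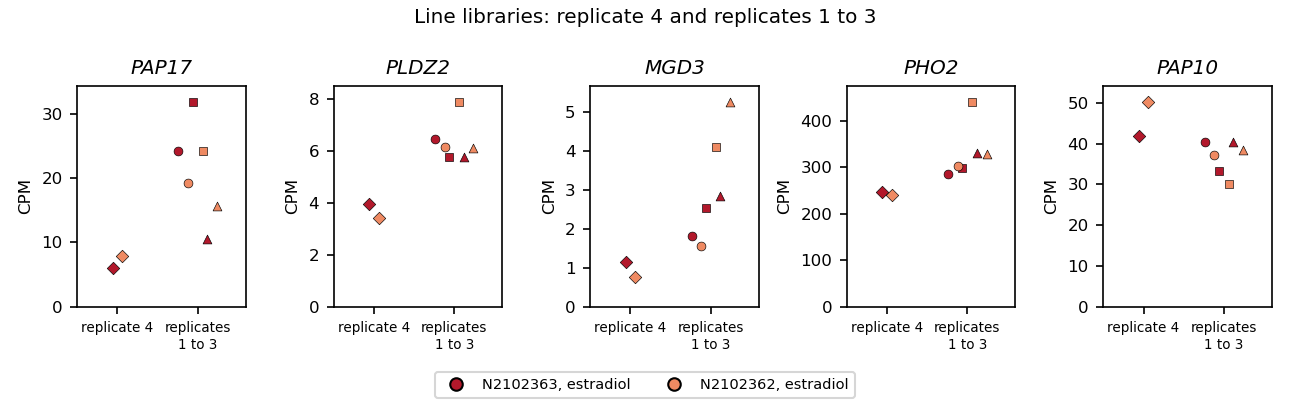
CPM of PAP17, PLDZ2, MGD3, PHO2 and PAP10 in replicate 4 of both lines and in their replicates 1 to 3, coloured by line. In each panel the 2 libraries of replicate 4 lie outside the range of the other 6.

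Beyond the members, 47 further genes of phosphate transport, signalling and recycling were listed, of which 39 were tested. None passed edgeR's test in the mean of both lines, beside 0.0356% of all genes tested. At an unadjusted p under 0.05 there were 2 (5.13%), a share below the 9.33% of all genes. Fold changes were above 0 for 18 and below for 21 (53.8%, beside 50.9%), and the median was -0.07. The smallest unadjusted p-values belonged to PECP1, a phosphatase of phosphocholine and phosphoethanolamine, with a log2 fold change of -0.70 ± 0.25 (SE; adjusted p = 0.520, edgeR) and to PHT3;1, the mitochondrial phosphate carrier, with -0.28 ± 0.12 (adjusted p = 0.528). PDR2, an ATPase of the root phosphate response, differed by -0.17 ± 0.08, AT1G63010 by -0.26 ± 0.13 and AT1G69480 by -0.78 ± 0.44. PECP1 averaged 0.697 CPM in N2102363, 0.821 ± 0.222 CPM in N2102362, 1.235 ± 0.178 CPM in Col-0 sprayed with estradiol and 1.198 ± 0.431 CPM in Col-0 with water (SD). In replicate 4 against replicates 1 to 3 of the lines 6 of the 39 were called (15.4%, beside 7.46% of all genes): PHT2;1, the plastid phosphate transporter, and UGP3, which makes the sugar nucleotide of sulfolipid, rose by 0.78 and 0.57 on the log2 scale, while PLDZ1, AT1G63010, AT3G01310 and AT1G13750 fell by 0.37, 0.43, 0.49 and 0.93.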

How the data were processed

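Raw read counts for each gene were deposited; the submitters' processing notes name FastQC, TopHat2, SAMtools and HTSeq, and the build TAIR10. The sources used here give no versions, strand setting or rule for reads with several matches. The TruSeq RNA v2 kit named in the labels' protocols does not mark strand. Totals per library were 20456036 to 22605970. The labels call the samples biological replicates, with 4 per line in the design text but 3 in the extraction protocol; file names of the lines carry the word combined, and what replicate 4 was is not resolved. Libraries of a group all differed beyond counting noise (lowest chi-square per degree of freedom 12.1).

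All 14 libraries entered one fit in edgeR 4.0.16 (R 4.3.3): filterByExpr (minimum count 10), which kept 19666 of 33602 genes, TMM, the robust quasi-likelihood test on group means (10 residual degrees of freedom) and Benjamini-Hochberg adjustment over all genes tested. Adjusted p-values come from this fit unless another is named beside them (a term for replicate 4, the replicate block, a library left out). CPM is the count over the TMM-adjusted total; intervals are 95%, from the SE and degrees of freedom of the fit. Exact permutation tests were two-sided, on log2(CPM + 0.5), over all assignments of libraries. A count of 0 was read as allowing up to 3 counts. These errors cover counting and the spread between libraries.

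Members, lists and tests were chosen with earlier results of these data known. Values per library are given for members of at least 1 CPM that had one of the 8 smallest p in the mean of both lines or of the 3 smallest in another comparison, or the highest level in their role; PHT1;5 and PAP17 were added after their values were seen. MGD3 is MGDC and PLDZ2 is PLDP2 in RefSeq. Replicate numbers were taken to pair the samples of N2102363 with those of N2102362, Col-0 with estradiol and Col-0 with water. There, deviations of same-numbered libraries from their group means correlated above 0.1 in every pair. They correlated at 0.226 to 0.718, 0.101 to 0.165 and 0.1035 to 0.460 (over genes), the last a comparison not made here. The pairing comes from the data, not from the labels, and the bound of 0.1 is low. For replicate 3, no same-numbered library was the best match between any groups, so its pairing is doubtful. A fit with the replicate block, DESeq2 1.42.0, RLE scaling, no filter, compared groups alone, other Col-0 references and each library left out were alternatives. Transcripts were compared with blastn 2.17.0. All 32 members were matched to RefSeq by locus tag; 56.8% of 32835 nuclear genes share a start or end with it, so the reference and the files' annotation differ in transcript ends. Coordinates of genes are those in the deposited files (TAIR10), and those of sites and promoter windows are from RefSeq (TAIR10.1).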

Additional observations from a re-analysis of the deposited data

Results flagged for a closer look

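In the groups of 4 libraries, 48 sets of values (24 members in 2 lines) were examined for 1 library far from the other 3, and 4 stood apart; chance alone gives about 1 in 20 sets. PHO1 in N2102363 was highest in replicate 3, at 50.26 CPM, against 36.39 to 38.00 CPM in the others. SPX1 in N2102363 was highest in replicate 2, at 51.48 CPM, against 33.49 to 35.58 CPM. SPX4 in N2102362 was lowest in replicate 2, at 15.43 CPM, against 19.69 to 20.55 CPM. NPC4 in N2102362 was highest in replicate 4, at 0.7713 CPM, against 0.6082 to 0.6318 CPM, a gap of few counts.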

How the results depend on the processing

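No member was called in any of 106 member counts over 23 alternative settings of the 5 comparisons between groups. The lowest adjusted p of a member among 2618 values was 0.0746, for PHO1 in the mean of both lines under an alternative setting. Those settings include other Col-0 references, and the reported edgeR fit against Col-0 with estradiol gave 0.528. Of these values 133 changed sign, but only 3 of the 788 whose reported size was at least 0.3 did; RNS1 in the mean of both lines was among them, at 1.209 when set against Col-0 with water, and the cause was not tested. Counts of called genes moved more. DESeq2 called 37 genes in N2102363, 10 in N2102362, 27 in the mean of both lines and 4 for N2102363 against N2102362. With the compared groups fitted alone 2 were called in N2102363 and 2 in N2102362. Set against Col-0 with water, the lines' mean had 11, and against all 6 Col-0 libraries 127. Leaving out 1 library gave 5 to 8 in N2102363 and 1 to 2 for N2102363 against N2102362. With the replicate block, 7 genes were called in N2102363 and 2, not 1, for N2102363 against N2102362, and the block changed no call of a member. Over all pairs of groups, 12 of 19 same-numbered pairs correlated best with each other. Between Col-0 with estradiol and Col-0 with water (0.505, 0.282 and 0.0661) or N2102362 (0.161, 0.629 and -0.127), not every same-numbered pair passed 0.1. The same held between N2102362 and Col-0 with water (0.1159, 0.3017 and -0.1855). The highest values of these sets were nonetheless above the 0.101 to 0.165 of N2102363 with Col-0 with estradiol. For replicate 4, the lines fitted alone gave 2457 genes, RLE scaling and no filter each left 1 member, and leaving out 1 library gave 0 to 2394 genes and 0 to 2 members. Depth limits the 8 untested members, NPC4 and PHT1;5 most. For PHT1;1, PHT1;2 and PHT1;3 the unknown rule for reads with several matches is a further limit.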
